A study of Solanum lycopersicum with 24 samples.

Results

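The data described here are the 12 root arrays of a tomato series of 24 arrays, read as a single question: in which transcripts did the response to salt of the *res* mutant differ from that of its wild type (WT). The arrays form 4 groups of 3, namely WT control, WT salt, *res* control and *res* salt. WT was *Solanum lycopersicum* cv. Moneymaker, which is also the background in which the *res* mutation was studied, so the genotypes are represented by 1 mutant line and 1 cultivar. Plants were grown in aerated Hoagland solution at reduced strength and were 6 weeks old when salt was given as 200 mM NaCl for 5 days. The first day was at a lower concentration. Each array carried total RNA pooled from 3 plants and is a biological replicate, and the number of arrays limits the precision of every value. Control roots were harvested before salt was added, so 5 days of further growth and the salt treatment cannot be told apart in either genotype. All levels are log2 intensities as deposited after robust multi-array average (RMA) processing, and they describe 67795 probe sets.

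The interaction of genotype and salt is a difference of differences: the salt minus control change in *res*, less the same change in WT. A positive value means that the transcript rose more, or fell less, in *res*, and a negative value means the opposite. The sign alone does not say which genotype moved, which is therefore given for the called genes that are named. In roots, salt lowers water uptake, brings sodium into the tissue and disturbs the uptake of other ions, and hormones such as abscisic acid, ethylene and jasmonate carry much of the transcriptional response. The *res* mutant is known for growing poorly in the absence of stress and for recovering a more normal appearance when salt is applied.

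In total 2505 of the 67795 probe sets were called for the interaction in roots, meaning a difference of 2-fold or more with a limma adjusted p below 0.05, which is 3.69% of those tested. The array's control probe sets are not marked in the files and may be among them, and 10 of the 2505 share all their values with another probe set, which leaves 2500 distinct ones. The interaction was positive for 1223 (1.8%) and negative for 1282 (1.89%). It reached 4-fold for 808 probe sets, 8-fold for 286 and 32-fold for 52, of which 27 were positive and 25 negative. The median interaction over all probe sets was 0.0055. Since these are bulk tissue samples, fewer cells of a type and less RNA per cell cannot be told apart in any of the values below.

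Most of the called probe sets differed between genotypes in control and less so in salt. The difference of *res* vs WT was smaller in salt for 2077 of the 2505 (82.9%), and its median size was 1.64 in control and 0.53 in salt on the log2 scale. For 1523 probe sets *res* vs WT passed the thresholds in control only, with 819 higher and 704 lower in *res*. Over all probe sets, 2.96% were higher and 2.47% lower in *res* in control, and 1.18% and 0.985% in salt. For 236 it passed in salt only, for 275 in both treatments with the same sign, for 138 in both with the sign turned over, and for 333 in neither. These counts describe probe sets that were chosen on the same arrays and carry no test of their own. Without WT salt replicate 3 the salt-only class held 491 probe sets and the share with a smaller difference in salt was 72.8%.

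**Figure D1:**
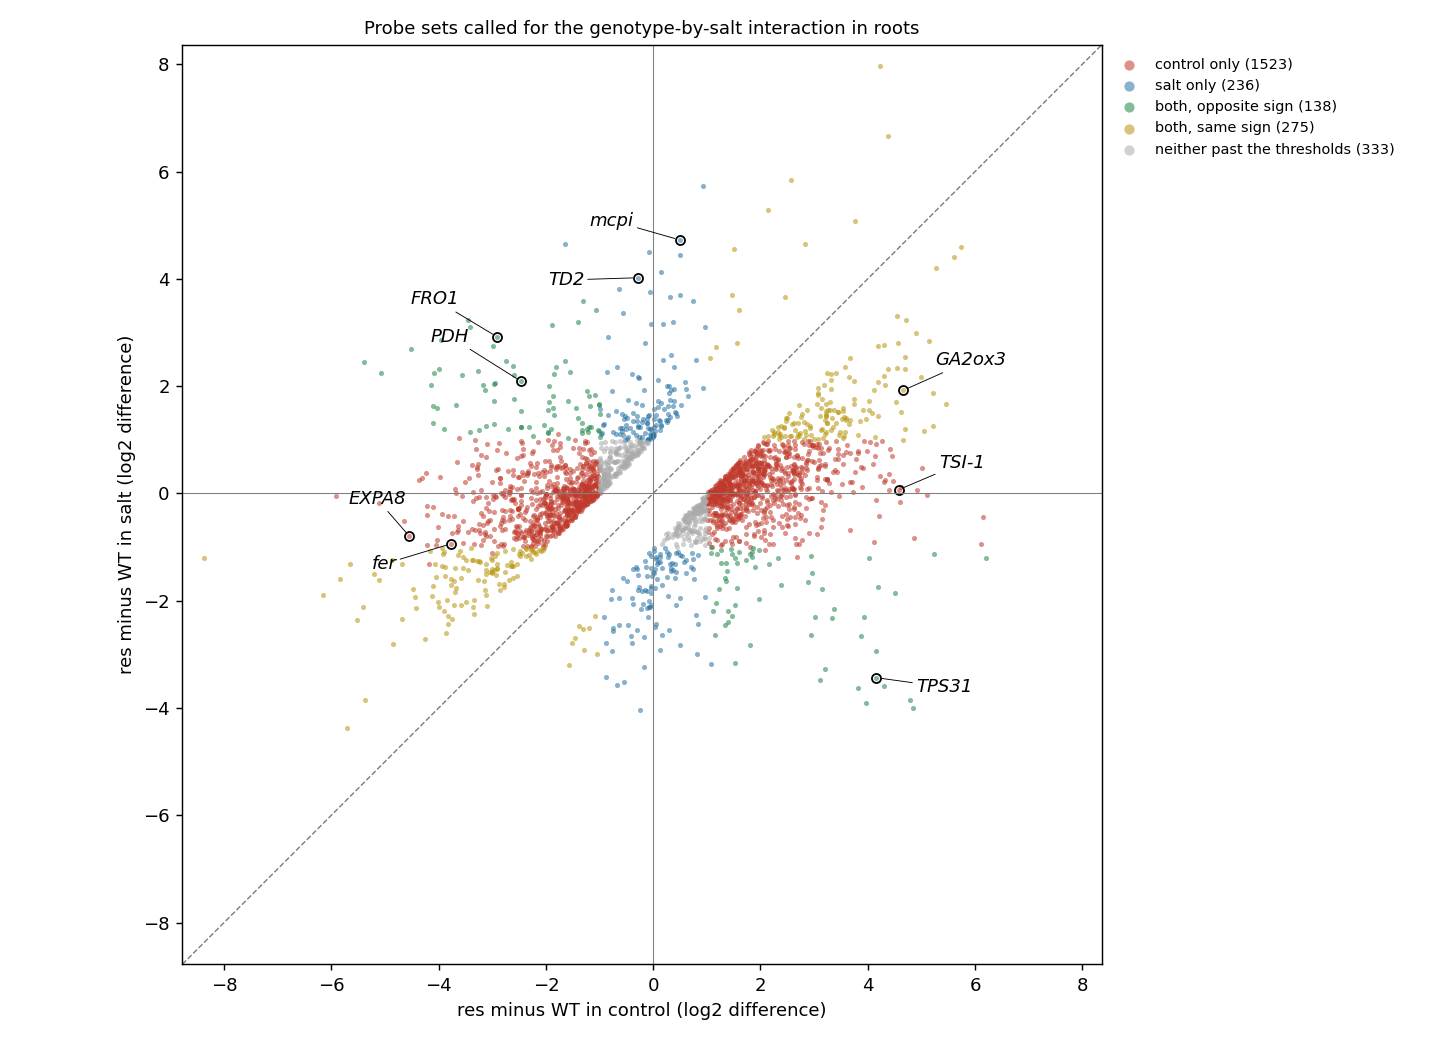
Difference of *res* vs WT in control roots (x axis) and in salt roots (y axis), both as log2 differences, for the 2505 probe sets called for the interaction, coloured by the treatment in which the genotypes differed; circles mark named genes and the dashed line marks equal differences. The 1523 probe sets that differed in control only lie along the horizontal axis, whereas *mcpi* and *TD2* lie near the vertical axis and *FRO1*, *PDH* and *TPS31* change sign.

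Both genotypes contributed to the interaction. Only *res* passed the thresholds for salt vs control in 930 of the 2505, of which 519 fell and 411 rose, and only WT passed in 655, of which 340 rose and 315 fell. Over all probe sets, 1.58% rose and 1.53% fell in *res*, and 1.5% rose and 1.21% fell in WT. In 237 probe sets both genotypes responded in opposite directions, with 124 rising in *res* and falling in WT and 113 doing the reverse. In a further 81 both moved the same way by unequal amounts, and in 602 neither change passed alone although their difference did. The *res* response was the larger of the pair in 1432 (57.2%) and the WT response in 1073 (42.8%).

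**Figure D2:**
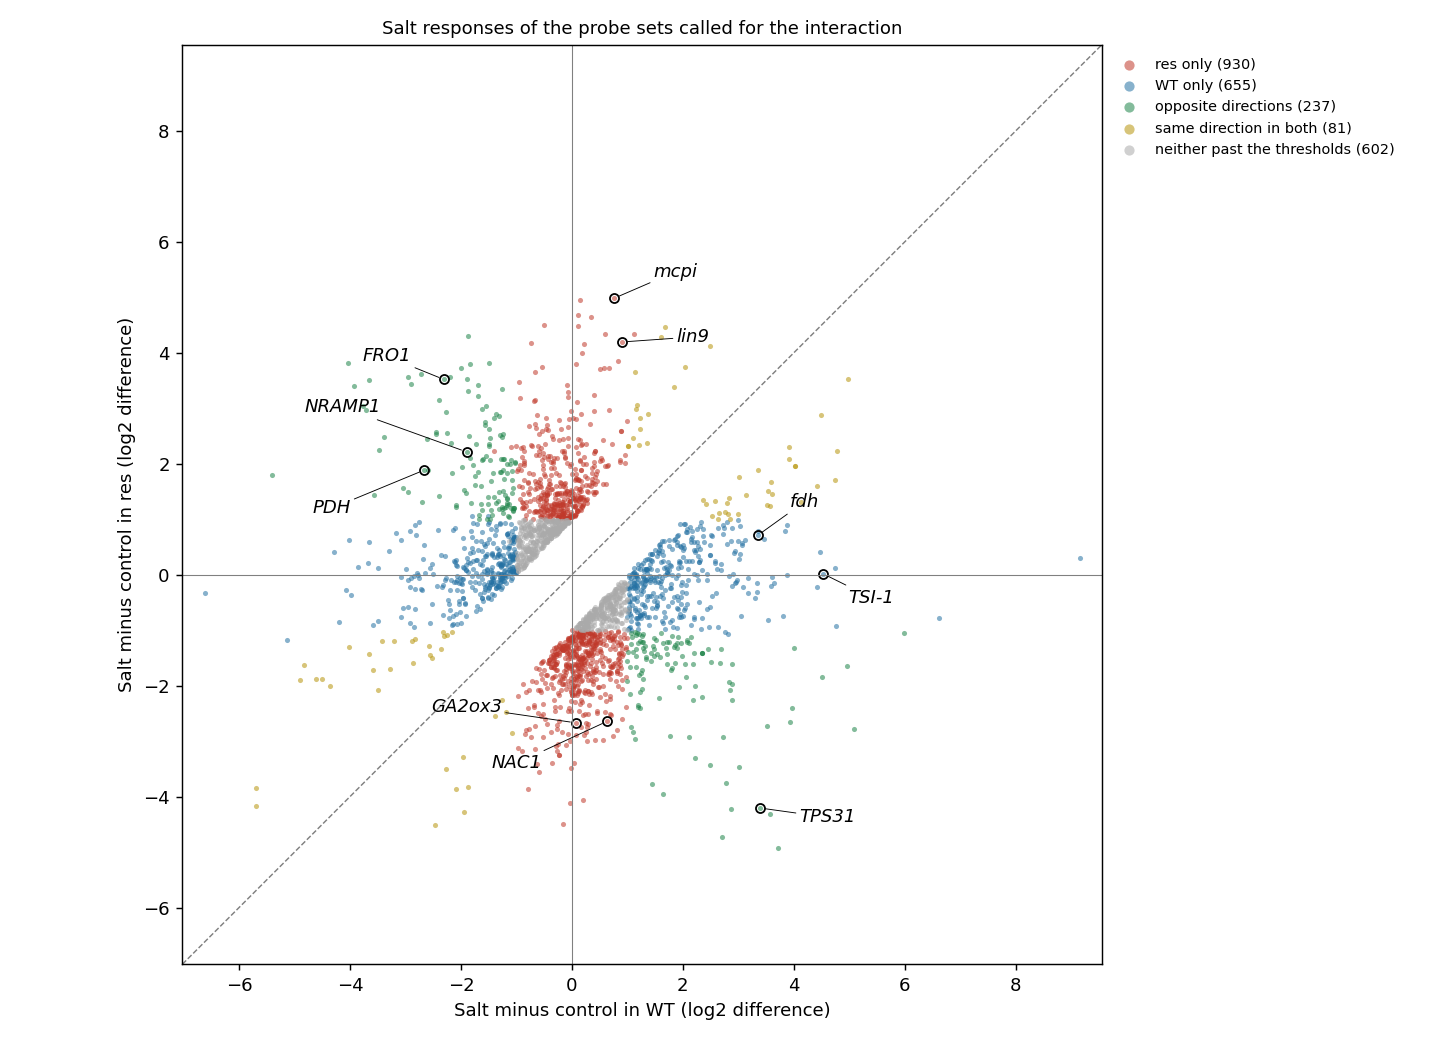
Salt minus control in WT roots (x axis) and in *res* roots (y axis), both as log2 differences, for the same 2505 probe sets, coloured by the genotype that responded. The 930 probe sets of *res* lie along the vertical axis, the 655 of WT along the horizontal axis, and the 237 with opposite responses in the upper left and lower right.

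Some facts on the arrays bear on every value that follows. In 9 of the 12 arrays between 58 and 142 probe sets were more than 2-fold away from the mean of their other replicates, whereas in the WT salt arrays this number was 518, 368 and 1399 for replicates 1, 2 and 3. The array weight that limma estimated was 0.39 for WT salt replicate 3 and from 0.65 to 1.59 for the others. Leaving this array out raised the number of calls to 3037. The median log2 intensity of an array was 1.93 to 2.05, and levels near this have no known detection status, since the values carry no detection calls. None of 11 leaf chloroplast markers was called, and their summed linear intensity lay between 154 and 461 in the roots, with both ends of the range in WT salt, against 9886 to 14130 in leaves. Gene symbols other than LOC numbers were available for 894 genes, of which 130 (14.5%) were called, against 8.8% of the 21323 genes with any symbol, and the gene names below come from these genes unless a LOC number is given. Among the 130, 52 responded in *res* only, 38 in WT only, 14 in opposite directions, 2 in the same direction and 24 in neither alone. The 14.5% is the share to set beside the counts of called list members below.

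The largest positive interaction of the named genes was that of *FRO1*, a gene of iron acquisition. In tomato roots FER, a bHLH transcription factor, turns on the iron deficiency response, FRO1 is the ferric-chelate reductase at the root surface and NRAMP1 is a metal transporter. The log2 intensity of *FRO1* was 7.61, 7.72 and 7.70 in WT control and 4.88, 5.10 and 6.13 in WT salt. In *res* it was 4.80, 4.78 and 4.72 in control and 8.28, 8.32 and 8.26 in salt. The 3 *res* salt arrays were thus the highest of the 12 and the 3 *res* control arrays the lowest, and the groups did not overlap. *FRO1* rose by 3.52 in *res* and fell by 2.30 in WT, an interaction of 5.82 ± 0.33 (SE, n = 3 per group; limma adjusted p = 1.87e-07).

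*NRAMP1* crossed over in the same manner. Its level was 8.58, 8.58 and 8.76 in WT control and 6.73, 6.73 and 6.77 in WT salt, against 6.96, 7.02 and 7.00 in *res* control and 9.14, 9.21 and 9.27 in *res* salt. No array of one group reached another group, and the interaction was 4.11 ± 0.12 (limma adjusted p = 2e-09). For *fer* the level was 9.04, 9.09 and 9.25 in WT control, 8.66, 8.66 and 8.64 in WT salt, 5.33, 5.31 and 5.44 in *res* control and 7.58, 7.76 and 7.80 in *res* salt. Here *res* moved, with a rise of 2.35, while WT changed by -0.47, and *res* salt stayed below both WT groups. The interaction of *fer* was 2.83 ± 0.13 (limma adjusted p = 3.92e-08).

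Other uptake genes had a positive interaction through a fall in WT. *TPSI1*, which is induced by phosphate starvation, was at 5.14, 5.06 and 5.01 in WT control and at 3.00 to 3.42 in the other 9 arrays. WT fell by 1.96 and *res* changed by -0.08. The phosphate transporter *PT2* fell by 1.96 in WT with -0.41 in *res*. Its mean over the root arrays was 2.20, near the median intensity of an array, and its interaction had a limma adjusted p of 0.0142. The potassium channel *LKT1* fell by 2.07 in WT with -0.89 in *res*. Of the 8 genes listed for iron, phosphate and potassium uptake, 6 were called (75%), all with a positive sign. Of all 894 genes with a non-LOC symbol 14.5% were called. The list's median was 1.72 against 0.0055 for all probe sets. With all 24 arrays in 1 fit, 5 of the 8 were called. The members not called were the metal transporter *NRAMP3*, with an interaction of 0.87, and the phosphate transporter *PT4*, with 0.10. Of the called genes, 5 also stand among 10 root markers, of which 6 were called and whose summed linear intensity was 5050 to 5235 in *res* control, 5537 to 5786 in *res* salt, 8722 to 9041 in WT control and 6066 to 6649 in WT salt. The part of root cell composition in these values was not tested.

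**Figure D3:**
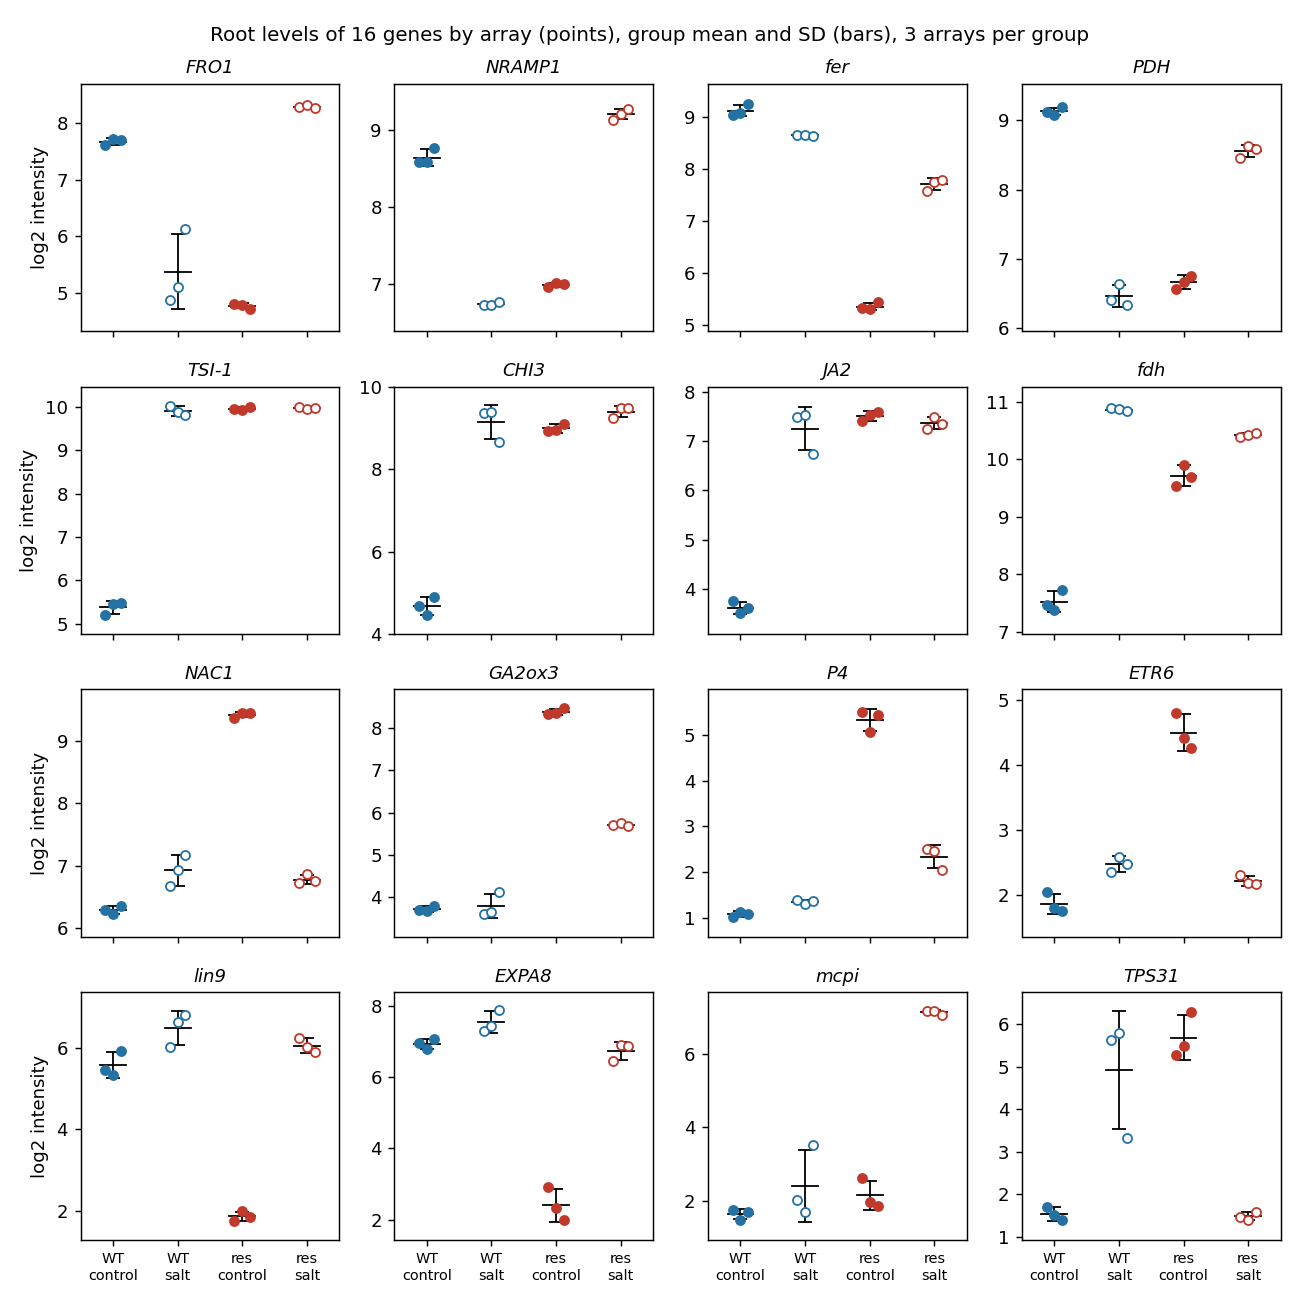
Log2 intensity (y axis) of 16 genes in the 4 root groups (x axis), with WT in blue, *res* in red, control filled and salt open; each point is an array of 3 per group, the horizontal bar is the mean and the whiskers are the SD. *FRO1*, *NRAMP1* and *PDH* were low in WT salt and in *res* control, *TSI-1*, *CHI3* and *JA2* were low only in WT control, and *mcpi* was high only in *res* salt.

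Among genes of proline and polyamine metabolism the largest interaction was that of *PDH*. The symbol was read as proline dehydrogenase, which degrades the osmolyte proline in mitochondria, but the tables used do not describe the protein, so this identity rests on the symbol alone. *PDH* was at 9.12, 9.07 and 9.18 in WT control and at 6.42, 6.65 and 6.34 in WT salt. In *res* control it was at 6.57, 6.67 and 6.76, and in *res* salt at 8.45, 8.62 and 8.59. WT salt overlapped with *res* control, and both lay below the other 2 groups, with a fall of 2.66 in WT and a rise of 1.89 in *res* (interaction 4.55 ± 0.14, limma adjusted p = 2.22e-09). Ornithine decarboxylase *ODC* and arginine decarboxylase *adc1*, which feed polyamine synthesis by separate routes, had negative interactions of -1.90 ± 0.13 and -1.55 ± 0.34. *ODC* rose by 1.32 in WT with -0.58 in *res*. For *adc1* neither genotype passed alone (0.73 in WT and -0.82 in *res*), and WT salt replicate 3 was at 8.76 while replicates 1 and 2 were at 9.95 and 9.94. Of the 18 listed genes 3 were called (16.7%, against 14.5% of all 894 genes with a non-LOC symbol). The proline synthesis genes *PRO1* and *PRO2* had interactions of -0.07 and 0.01.

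Pathogenesis-related (PR) proteins, which plants secrete or store in defence, had the largest share of calls of the 25 lists. Of 8 members 7 were called (87.5%, against 14.5% of all 894 genes with a non-LOC symbol), all negative, and the list's median was -1.28. In control roots 5 of the 8 were higher in *res* than in WT at the thresholds and none was lower. Over all probe sets 2.96% were higher and 2.47% lower, a base that includes the probe sets without a symbol. The stress-induced gene *TSI-1* was at 5.20, 5.44 and 5.47 in WT control, at 10.03, 9.87 and 9.80 in WT salt, at 9.94, 9.92 and 10.00 in *res* control and at 9.99, 9.94 and 9.98 in *res* salt. WT control thus lay far below the other 3 groups, which overlapped. The interaction was -4.51 ± 0.14 (limma adjusted p = 2e-09), all of it from the rise of 4.53 in WT, since *res* changed by 0.02.

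The chitinase gene *CHI3* behaved alike, at 4.68, 4.45 and 4.90 in WT control and between 8.67 and 9.48 in the other 9 arrays. It rose by 4.47 in WT, with 0.41 in *res*, and its interaction was -4.06 ± 0.25 (limma adjusted p = 4.35e-07). *CHI9*, another chitinase gene, also rose in WT only, by 1.12, but from a control level that did not differ between genotypes at the thresholds. It was at 9.34 to 9.41 in WT control, 10.39 to 10.65 in WT salt and 8.97 to 9.17 in all *res* arrays. With all 24 arrays in 1 fit *CHI9* was not called (limma adjusted p = 0.752), and 6 of the 8 PR genes were called there. *PR1b1* rose by 1.36 in WT with 0.10 in *res*.

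For *P4*, a member of the PR-1 family, it was *res* that moved. Its level was 1.01, 1.13 and 1.08 in WT control, 1.38, 1.31 and 1.36 in WT salt, 5.50, 5.06 and 5.43 in *res* control and 2.51, 2.45 and 2.05 in *res* salt. All *res* control arrays stood above the rest, and *res* salt still lay above both WT groups. *P4* fell by 3.00 in *res* (interaction -3.27 ± 0.19, limma adjusted p = 2.83e-07). The member not called was *CHI17*, with an interaction of 0.84, positive where the others were negative.

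Other genes with a response confined by the thresholds to WT came from several functions. *JA2*, a NAC transcription factor, was at 3.74, 3.50 and 3.60 in WT control and at 7.50, 7.53 and 6.75 in WT salt. In *res* it was at 7.40, 7.53 and 7.60 in control and 7.26, 7.50 and 7.35 in salt. Only WT control stood apart, and the interaction was -3.79 ± 0.25 (limma adjusted p = 6.52e-07). The endoglucanase gene *cel5*, whose enzyme cuts cell wall glucans, rose by 3.33 in WT with -0.15 in *res*, from 2.35 to 2.60 in WT control to 5.39 to 6.20 elsewhere.

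Enzymes of oxidative metabolism were in part of the same kind. Formate dehydrogenase *fdh* was at 7.46, 7.37 and 7.72 in WT control and at 10.89, 10.87 and 10.84 in WT salt, and in *res* it went from 9.54, 9.91 and 9.69 to 10.39, 10.42 and 10.45. The 4 groups did not overlap, and WT moved by 3.35 with 0.71 in *res* (interaction -2.64 ± 0.16, limma adjusted p = 3.27e-07). The catalase gene *cat1* rose by 2.53 in WT with 0.70 in *res* (interaction -1.83 ± 0.13). By contrast *Wfi1*, which encodes an NADPH oxidase, and *CEVI-1*, which encodes a peroxidase, fell in *res* by 1.45 and 2.75, with 0.07 and 0.28 in WT. Of the 19 genes listed for oxidative stress and haemoglobin 5 were called with a negative and 1 with a positive sign. The called share was 31.6%, against 14.5% of all 894 genes with a non-LOC symbol. Ascorbate peroxidase *APX1* and superoxide dismutase *SODCC.1* had interactions of 0.05 and 0.20.

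Asparagine synthetase *AS1* is a case in which both genotypes rose. It was at 5.84, 5.84 and 5.39 in WT control, 9.59, 9.57 and 8.45 in WT salt, 8.32, 8.35 and 8.25 in *res* control and 9.48, 9.55 and 9.68 in *res* salt. WT rose by 3.52 and *res* by 1.26 from a higher start, and the salt groups overlapped. The lipid transfer protein gene *ltpg1* also rose in both, by 3.01 in WT and 1.77 in *res*. For *ARPI*, of the same list as *ltpg1*, WT alone passed the thresholds (interaction -1.24). The nitrite reductase gene *nii1*, of the same nitrogen list as *AS1*, fell by 1.73 in WT with -0.66 in *res* (interaction 1.07 ± 0.22).

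Another kind of gene was high in *res* control alone and fell in *res* under salt. The NAC factor *NAC1* was at 6.29, 6.23 and 6.36 in WT control, 6.68, 6.94 and 7.18 in WT salt, 9.37, 9.45 and 9.44 in *res* control and 6.72, 6.86 and 6.75 in *res* salt. *res* control stood above all other arrays, and *res* salt lay within the range of WT salt. The fall in *res* was 2.64, with 0.64 in WT (interaction -3.28 ± 0.16, limma adjusted p = 5.89e-08). Aromatic amino acid decarboxylase *AADC1A* fell by 2.60 in *res* with 0.91 in WT, and divinyl ether synthase *DES*, of the 9-lipoxygenase pathway, fell by 2.51 with 0.69 in WT. For *AADC1A* the *res* control arrays were at 8.93 to 9.18 and the other 9 at 5.34 to 6.86.

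Of 16 genes listed for calcium and kinase signalling 3 were called (18.8%), all of them receptor genes that fell in *res*. That share is near the 14.5% called among all 894 genes with a non-LOC symbol. *Ve1* and *Ve2* encode receptor-like proteins of the *Verticillium* resistance locus, and *Eix1* a receptor-like protein that binds a fungal xylanase. *Ve1* was at 4.36 to 4.54 in *res* control and at 1.76 to 2.59 in the other arrays. It fell by 2.12 in *res*, *Ve2* by 1.74 and *Eix1* by 2.13, while WT changed by 0.22 for *Ve1*, -0.0037 for *Ve2* and 0.11 for *Eix1*. The list's median was -0.13, and the kinase gene *Pti1*, which acts in resistance to bacteria, had an interaction of -0.11 and was not called. The calcium sensor gene *CBL10* and the kinase gene *CIPK6* had interactions of 0.02 and 0.04.

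Gibberellin and auxin genes moved in *res* alone where they were called. *GA2ox3*, whose enzyme inactivates gibberellins, was at 3.69, 3.67 and 3.80 in WT control and 3.60, 3.66 and 4.12 in WT salt. In *res* it was at 8.33, 8.35 and 8.46 in control and 5.70, 5.75 and 5.68 in salt. The fall of 2.67 left *res* salt above both WT groups, by 1.92 over WT salt (interaction -2.74 ± 0.17, limma adjusted p = 5.09e-07). *GRAS2*, of the GRAS family of transcriptional regulators, fell by 2.78 in *res* with -0.27 in WT. The auxin efflux carrier *PIN2* rose by 2.35 in *res*, from 2.60 to 2.98 in control to 4.89 to 5.28 in salt, against 4.38 to 5.07 in WT control and 3.06 to 4.62 in WT salt. The 3 WT salt arrays were widely spread, and the interaction of *PIN2* was 3.09 ± 0.43 (limma adjusted p = 0.000481). *IAA9*, an auxin response repressor, rose by 1.01 in *res*, but a second probe set of the gene had an interaction of -0.02 and was not called. In all, 5 of 38 listed genes were called (3 positive, 2 negative), and the list's median was 0.04. The called share was 13.2%, against 14.5% of all 894 genes with a non-LOC symbol.

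Ethylene is made from *S*-adenosylmethionine by ACC synthase (*ACS* genes) and ACC oxidase (*ACO* genes). Of 12 genes listed for ethylene synthesis 5 were called with a negative and 1 with a positive interaction. The called share was 50%, against 14.5% of all 894 genes with a non-LOC symbol. *aco5* was at 2.03 to 2.50 in WT control, 2.19 to 3.33 in WT salt, 7.29, 7.46 and 7.35 in *res* control and 5.45, 5.17 and 5.74 in *res* salt. It fell by 1.91 in *res* and stayed above both WT groups (interaction -2.30 ± 0.35, limma adjusted p = 0.000894). *ACS2* rose by 1.30 in WT with -0.73 in *res*, and *ACS6* fell by 1.13 in *res* with 0.24 in WT, though its interaction was not called with all 24 arrays in 1 fit (limma adjusted p = 0.238). *ACO4* had a positive interaction of 1.04 ± 0.18 through a fall of 1.66 in WT, whereas a second, dimmer probe set of this gene had -3.02, so the gene has no single direction here.

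Of 15 genes of ethylene perception and signalling, 2 were called, both receptors. The called share was 13.3%, against 14.5% of all 894 genes with a non-LOC symbol. *ETR6* was at 1.76 to 2.04 in WT control, 2.35 to 2.59 in WT salt, 4.81, 4.42 and 4.25 in *res* control and 2.18 to 2.31 in *res* salt. It fell by 2.27 in *res* with 0.61 in WT (interaction -2.88 ± 0.19, limma adjusted p = 7.56e-07). *ETR4* moved in both genotypes, falling by 1.10 in *res* and rising by 1.27 in WT, until the salt arrays of the genotypes overlapped at 5.76 to 6.23. The receptors *ETR1* and *ETR2* had interactions of -0.35 and 0.23, and the central signalling gene *EIN2* had 0.25. Among ethylene response factors *ERF1* (-1.67 ± 0.22) and *ERF2* (-1.16 ± 0.25) were called out of 9 genes of the ERF and DREB list (22.2%). *ERF2* fell by 1.01 in *res* with 0.14 in WT, and *ERF1* passed in neither alone, with -0.86 in *res* and 0.81 in WT. A second, called probe set of *ERF1* had an interaction of -1.03 with 0.56 in *res* and 1.60 in WT, so the direction in *res* differed between them.

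**Figure D4:**
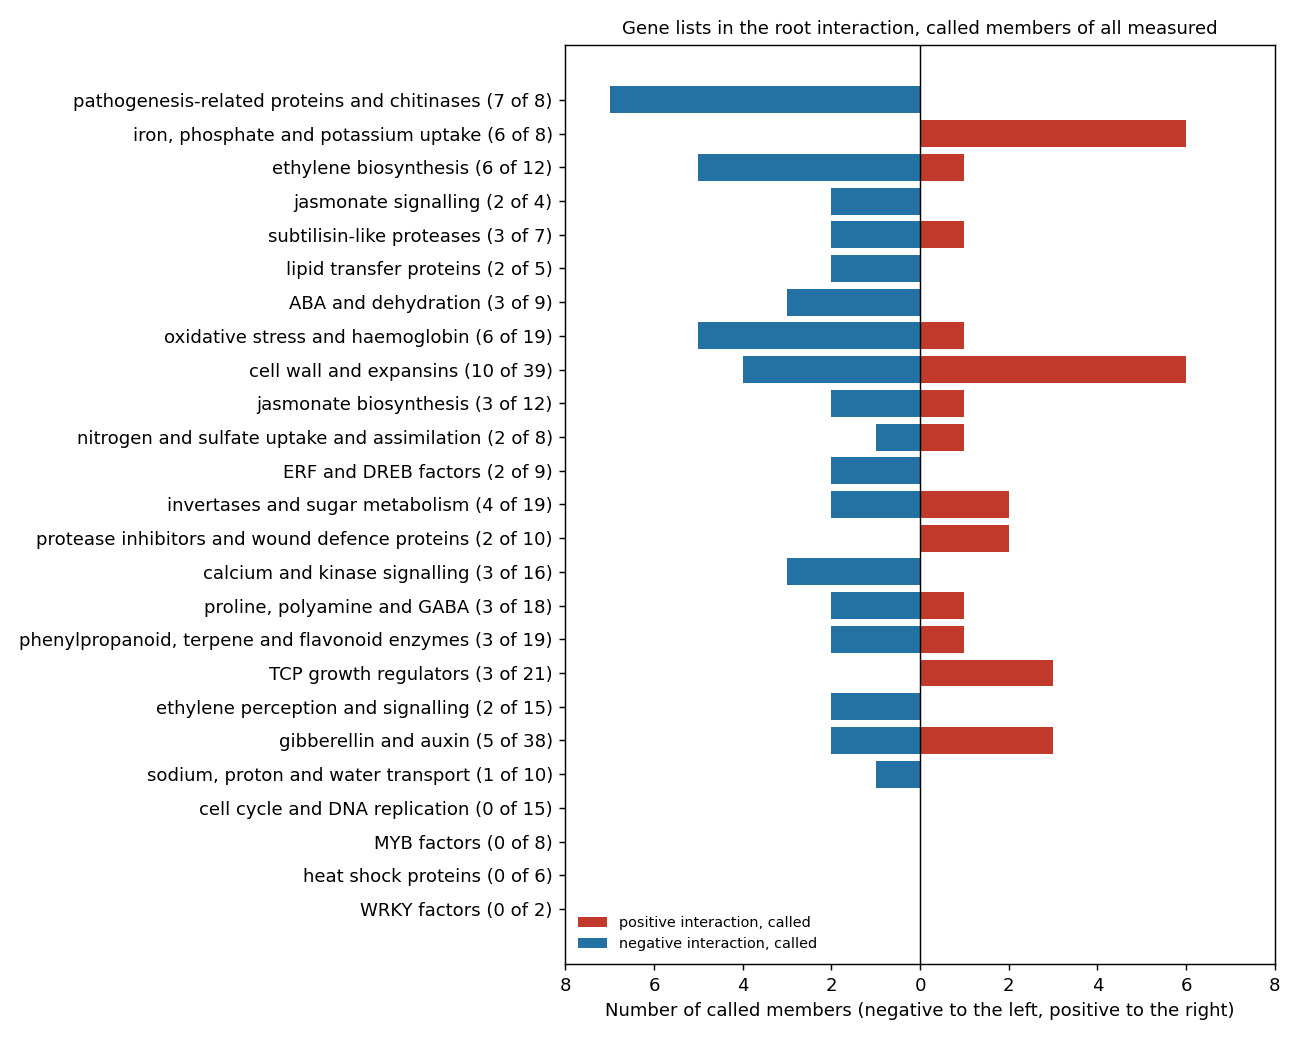
Number of genes called for the root interaction in each of 25 gene lists, positive to the right and negative to the left of 0 (x axis), with the called and the measured members of each list beside its name (y axis). PR proteins (7 of 8) lie wholly on the negative side and ion uptake genes (6 of 8) wholly on the positive side, against 14.5% called among all genes with such a symbol.

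Jasmonate is made from linolenic acid by a 13-lipoxygenase and allene oxide synthase in turn, and JAZ proteins repress its responses. The 13-lipoxygenase gene *loxD* was at 6.41 to 6.56 in WT control, 6.56 to 6.71 in WT salt, 8.95 to 9.06 in *res* control and 7.38 to 7.53 in *res* salt. It fell by 1.53 in *res* and stayed above WT (interaction -1.71 ± 0.12, limma adjusted p = 1.5e-06). Allene oxide synthase *aos* was at 8.59, 8.73 and 8.71 in *res* control and 7.92 to 8.08 in *res* salt, against 3.83 to 4.96 in WT, and its interaction of -1.49 ± 0.18 came from small changes in both genotypes. *SLJAZ3* fell by 1.25 in *res* with -0.07 in WT. *LOX1.1*, a 9-lipoxygenase gene, went the other way: it fell by 1.08 in WT, from 9.97 to 10.08 down to 8.78 to 9.25, and rose by 1.71 in *res*, from 8.05 to 8.31 up to 9.82 to 9.94. Of the 12 synthesis genes 2 were negative and 1 positive (25% called), and of the 4 signalling genes 2 were negative (50% called). Of all 894 genes with a non-LOC symbol 14.5% were called. The regulator *MYC2* had an interaction of -0.18.

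In the abscisic acid and dehydration list 3 of 9 genes were called (33.3%, against 14.5% of all 894 genes with a non-LOC symbol). All were negative, and each followed a pattern of its own. *ER5*, a late embryogenesis abundant gene, was at 11.24, 11.22 and 11.20 in *res* control and 8.22 to 8.43 in *res* salt, against 6.99 to 7.23 in WT control and 6.02 to 6.99 in WT salt. It fell by 2.92 in *res* with -0.74 in WT (interaction -2.19 ± 0.28). *ASR1*, a small protein gene induced by abscisic acid and stress, rose by 1.64 in WT with 0.24 in *res*. The bZIP factor *AREB1*, an activator of abscisic acid responses, passed in neither alone (0.88 in WT, -0.30 in *res*). The dehydrin gene *TAS14* rose by 5.33 in WT and by 5.12 in *res*, and its interaction of -0.21 ± 0.33 was not called (limma adjusted p = 0.864).

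Genes of sugar and cell wall metabolism were among those that rose in *res* from a low control level. Invertases split sucrose into hexoses. *lin9* was at 5.46, 5.34 and 5.93 in WT control, 6.02, 6.63 and 6.81 in WT salt, 1.76, 1.99 and 1.84 in *res* control and 6.25, 6.03 and 5.90 in *res* salt. Only *res* control stood apart, and the rise of 4.20 in *res* compared with 0.91 in WT (interaction 3.29 ± 0.28, limma adjusted p = 6.21e-06). *LIN8* rose by 2.32 in *res* with -0.62 in WT (interaction 2.94 ± 0.30). In the same list of 19 genes, the invertase gene *Wiv-1* (-1.10) and LOC543961 (-2.37), for which RefSeq gives the synonym *SUS1*, were negative. LOC543961 rose by 2.59 in WT, and for *Wiv-1* neither genotype passed alone. The called share of this list was 21.1%, against 14.5% of all 894 genes with a non-LOC symbol.

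The cell wall list of 39 genes held 6 positive and 4 negative calls (25.6%, against 14.5% of all 894 genes with a non-LOC symbol). Expansins loosen the wall and xyloglucan endotransglucosylases (*XTH*, *BR1*, *tXET*) rejoin its xyloglucan chains. The expansin gene *EXPA8* was at 6.96, 6.80 and 7.07 in WT control, 7.29, 7.45 and 7.89 in WT salt, 2.91, 2.31 and 1.98 in *res* control and 6.46, 6.90 and 6.87 in *res* salt. *res* control was the lowest group by far, and *EXPA8* rose by 4.35 in *res* with 0.60 in WT (interaction 3.74 ± 0.31, limma adjusted p = 4.69e-06). *BR1* rose by 2.04 in *res* and fell by 1.02 in WT, to levels of 7.51 to 7.72 and 7.15 to 7.62. *XTH16* moved likewise (1.27 in *res* and -1.13 in WT), while *XTH6* rose in *res* only. On the negative side *XTH3* and *tXET-B2* fell in *res* by 1.93 and 2.18, and the expansin gene *EXP5* rose by 1.64 in WT. The list's median was 0.02.

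*EXPA6*, a further expansin gene, differed from these in that the genotypes did not differ in control at the thresholds. It was at 3.96, 3.92 and 4.26 in WT control and 4.15, 4.20 and 4.76 in *res* control, then at 1.91, 2.22 and 1.74 in WT salt and 5.50, 5.91 and 5.45 in *res* salt. The control groups overlapped and the salt groups lay on either side of them. *EXPA6* rose by 1.25 in *res* and fell by 2.09 in WT (interaction 3.34 ± 0.26, limma adjusted p = 3.18e-06).

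A pair of genes for defence against herbivores rose in *res* under salt only, from control levels that did not differ between genotypes at the thresholds. *TD2* encodes a threonine deaminase that remains active in the gut of insects, and *mcpi* an inhibitor of metallocarboxypeptidases. *mcpi* was at 1.76, 1.49 and 1.70 in WT control, 2.02, 1.69 and 3.52 in WT salt, 2.61, 1.96 and 1.88 in *res* control and 7.16, 7.17 and 7.07 in *res* salt. *TD2* was at 2.32 to 2.95 in WT control, 2.46, 2.94 and 3.61 in WT salt, 2.01 to 2.78 in *res* control and 7.04, 6.98 and 7.07 in *res* salt. In both genes the 3 *res* salt arrays stood above all others, and WT salt replicate 3 was the highest of the remaining 9. The interactions were 4.22 ± 0.50 (limma adjusted p = 0.000116) for *mcpi* and 4.30 ± 0.37 (limma adjusted p = 6.59e-06) for *TD2*. The other 8 members of the list of protease inhibitors and wound proteins were not called, among them *PIIF* (-0.08) and the arginases *ARG1* (-0.75) and *ARG2* (0.05). Of 6 wound markers *TD2* was the one called.

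The terpene synthase gene *TPS31*, which encodes viridiflorene synthase, had the largest interaction of the named genes. Its level was 1.71, 1.51 and 1.39 in WT control, 5.64, 5.81 and 3.33 in WT salt, 5.28, 5.50 and 6.30 in *res* control and 1.47, 1.40 and 1.59 in *res* salt. The gene was high in *res* control and in WT salt and low in the other 2 groups, and WT salt replicate 3 lay between the high and the low arrays. It fell by 4.20 in *res* and rose by 3.39 in WT (interaction -7.59 ± 0.70, limma adjusted p = 1.25e-05). Without this array the interaction was -8.39. *TPS1* had opposite responses as well, -1.67 in *res* and 1.05 in WT. *TPS17* rose by 2.98 in *res* under salt, from 2.30 to 2.96 in control to 5.30 to 5.85, with 0.67 in WT. Of 19 genes of phenylpropanoid, terpene and flavonoid enzymes these last 2 and *AADC1A* were called. The called share was 15.8%, against 14.5% of all 894 genes with a non-LOC symbol.

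The remaining genes named for the size of their interaction were of several kinds. Among subtilisin-like proteases *P69B*, which is induced in defence, fell by 1.46 in *res* and rose by 1.98 in WT (interaction -3.44 ± 0.21). *SBT2* rose by 2.00 in WT, and *SBT1* rose by 1.32 in *res*. With all 24 arrays in 1 fit *P69B* (limma adjusted p = 0.0703) and *SBT2* (0.0509) were not called. *cevi57*, named for its induction by citrus exocortis viroid, fell by 2.79 in *res* with 0.81 in WT. *pmt* rose by 1.94 in *res* and fell by 1.98 in WT, and *AT1* rose by 1.86 and fell by 1.68. *Mdip1* and *GLO2* fell in WT by 3.07 and 2.81 with 0.62 and 0.72 in *res*. For *GLO2* the 3 WT salt arrays were at 4.83, 5.13 and 3.29, with replicate 3 the lowest, and the interaction was 3.52 ± 0.50 and 2.96 without that array.

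Growth regulators of the TCP family were lower in *res* control than in WT for 6 of 21 members at the thresholds, against 2.47% of all probe sets. That base is unlike the list, since most probe sets have no symbol. Genes with a non-LOC symbol were called more often for the interaction (14.5% against 3.69%), and their share lower in *res* control is not given here. For the interaction 3 TCP members were called (14.3%), all positive. That is about the share called among all 894 genes with a non-LOC symbol (14.5%). *TCP3* was at 4.43 to 4.66 in WT control, 3.42 to 4.38 in WT salt, 2.01 to 2.44 in *res* control and 2.83 to 3.39 in *res* salt (interaction 1.65 ± 0.32, limma adjusted p = 0.00565). *TCP17* and *TCP24* had interactions of 1.18 and 1.10, and a second probe set of *TCP24* had 0.70 and was not called. In none of the 3 did either genotype pass alone. The list's median was 0.26.

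Other groups gave few calls or none. In 15 genes of the cell cycle and DNA replication none was called, with interactions from -0.44 (*krp2*) to 0.76 (*wee1*), and none in 8 MYB factors, 6 heat shock proteins and 2 WRKY factors. The lists hold only genes found by symbol or synonym, so these counts do not describe the whole families. The paper reports many WRKY and MYB genes raised in *res* control roots, with most of these differences gone in salt. Genes that it names by Solyc number were not looked up here. Of 10 genes listed for sodium, proton and water transport only *pip1* was called (-1.59), with WT alone passing the thresholds. It was not called with all 24 arrays in 1 fit (limma adjusted p = 0.341), and its protein was not settled by the tables used. The sodium/proton antiporter *sos1* had an interaction of 0.17 ± 0.12 (limma adjusted p = 0.61) and *NHX1* of -0.57 ± 0.34 (limma adjusted p = 0.508), with salt changes of 1.42 in WT and 0.86 in *res*. A p that misses the threshold does not show that these genes responded alike.

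The interaction in roots was then set against that in leaves. Calls within a tissue came from a limma fit of its own 12 arrays, and the difference between tissues from a fit of all 24. Of the 2505 probe sets called in roots, 489 (19.5%) were also among the 2792 called in leaves (4.12% of those tested, and 17.5% of the leaf calls), 161 with the same and 328 with the opposite sign. The difference between tissues itself was called for 1978 of the 2505 and for 7.76% of all probe sets. The 2505 were chosen on the root interaction, which is part of this difference. Their higher share is thus no measure of tissue specificity. For *FRO1* the interaction was -0.83 in leaves, for *NRAMP1* 0.08 and for *fer* -0.14, and the difference from roots was called for each. *mcpi* and *TD2*, positive in roots, had -6.31 and -5.92 in leaves, and *ER5*, negative in roots, had 8.35. For *fdh* the interaction was -3.36 in leaves and -2.64 in roots, and their difference of 0.72 was not called (limma adjusted p = 0.171). The same held for *ODC*, with -2.19 in leaves and -1.90 in roots (limma adjusted p = 0.864).

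**Figure D5:**
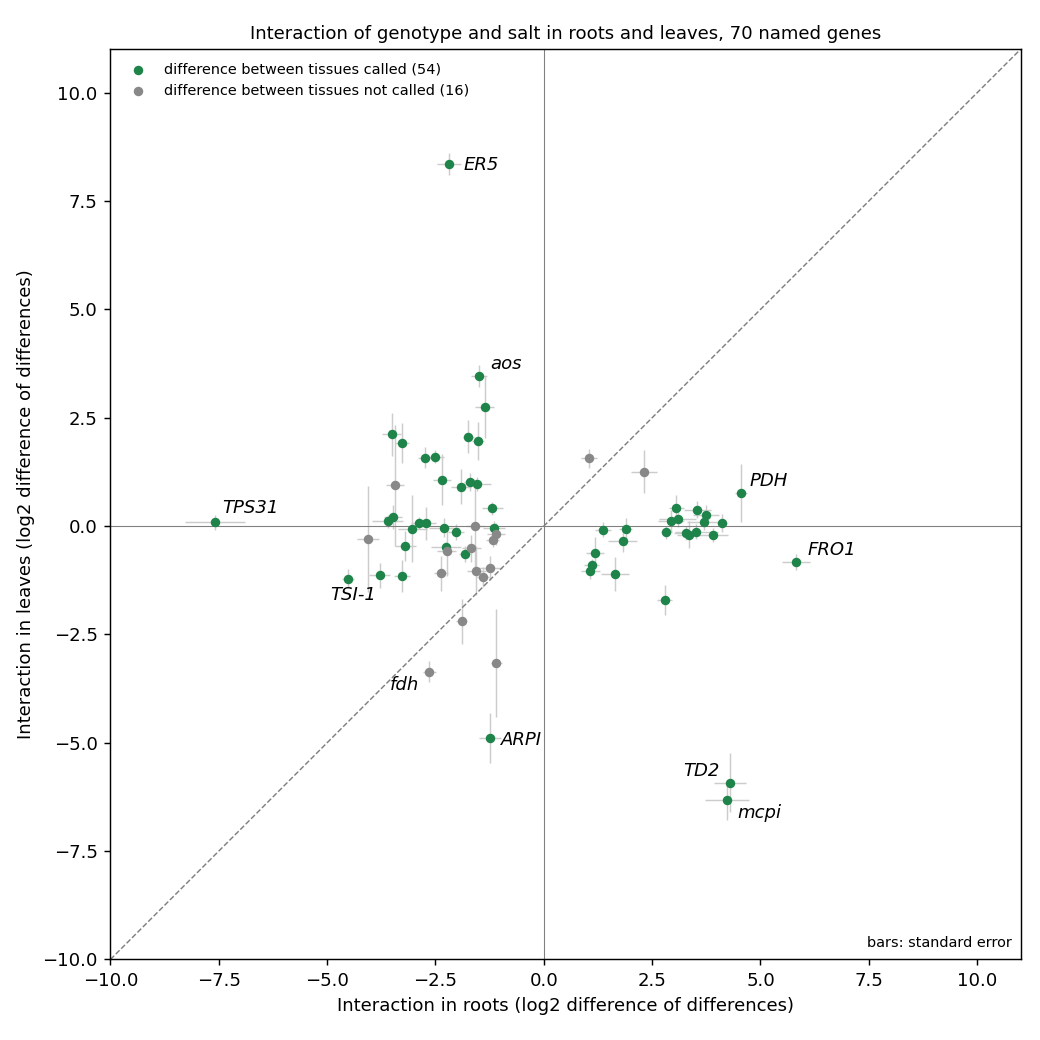
Interaction of genotype and salt in roots (x axis) and in leaves (y axis), both as log2 differences of differences, for the 70 named genes; bars are standard errors, the dashed line marks equal values, and green points are the 54 genes whose difference between tissues was called. *FRO1*, *PDH* and *TPS31* lie near 0 for leaves, *mcpi* and *TD2* at the lower right, and *fdh* near the dashed line.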

How the data were processed

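The members, gene lists and comparisons were chosen with earlier results of these data known. The authors summarised the array scans by RMA, which corrects background, normalizes by quantiles and yields log2 intensities, and these were used as deposited for 67795 probe sets. Partek served the study for annotation and testing (software versions: not given in the sources used here). Detection calls are absent from the values, so dim probe sets could not be set aside by them. Probe sets were named from the platform's symbols, updated with the RefSeq gene table: 23194 had 1 symbol (22244 of them LOC numbers), 170 several and 44431 none. For each gene the probe set with the highest mean over 24 arrays was used.

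The 12 root arrays were fitted as 4 groups in limma 3.58.1 (R 4.3.3), with Benjamini-Hochberg adjustment across the 67795 probe sets. The thresholds for a DEG were 0.05 for the adjusted p and 2-fold for the difference. Named genes were the 12 largest calls in each direction whose sign held without each array, and up to 4 called members with the smallest p of each of 25 lists. Members that were not called, *PT2*, *LKT1*, *PR1b1*, *EXP5*, *tXET-B2*, *XTH6*, *XTH16* and LOC numbers were chosen after their values were seen where the rule did not name them. On simulated data of the root interaction (67795 probe sets), 0 of 50 probe sets changed 1.5-fold and 43 of 50 changed 2.5-fold were called. At 4-fold 49 of 50 were called and at 8-fold 50 of 50, with 6 calls among 67595 unchanged. The simulated noise of a probe set had the same spread in all 4 groups, and each change was placed in *res* salt. The WT salt arrays were more spread than the others, so these rates need not hold for the data. Alternatives were all 24 arrays in 1 fit, ordinary analysis of variance, trended and robust moderation, array weights, repeated quantile normalization, the dimmest 1 in 3 probe sets left out, a 1.5-fold threshold, a replicate block, and each array left out. Deviations from the group means gave no sign of pairing by replicate number. For 18 same-numbered pairs r ran from -0.08 to 0.06, and for 36 other pairs from -0.09 to 0.09. Such correlations over all probe sets cannot exclude a shared tank or batch.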

Additional observations from a re-analysis of the deposited data

Results flagged for a closer look

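For 14 named genes the interaction was called in both tissues with opposite sign, each in the fit of its own 12 arrays, and the difference between roots and leaves was called in a limma fit of 24 arrays. In that fit the root interaction of *ACS6* alone was not called (adjusted p = 0.238), and *nii1* fell under 2-fold in roots without *res* salt replicate 1 or 2 or WT salt replicate 1 (0.98, 1.00 and 0.98). The value given for each gene is the root interaction minus the leaf interaction on the log2 scale. Positive differences were found for *mcpi* (10.54 ± 0.74, SE), *TD2* (10.22 ± 0.84), *LOX1.1* (4.50 ± 0.40) and *nii1* (2.12 ± 0.29), which were positive in roots and negative in leaves. *ER5* had the largest negative difference, -10.53 ± 0.39, from -2.19 in roots and 8.35 in leaves. Among defence and signalling genes the difference was -5.63 for *AADC1A*, -5.19 for *NAC1*, -3.80 for *Ve2* and -3.48 for *Wfi1*. Among hormone genes it was -4.95 for *aos*, -4.32 for *GA2ox3*, -4.12 for *ACS6*, -4.11 for *GRAS2* and -2.73 for *loxD*. The adjusted p of these differences ran from 2.25e-13 (*ER5*) to 0.00121 (*ACS6*). Since the genes were picked for calls of opposite sign in the tissues, a called difference was close to given. These p-values are thus no separate evidence. All 14 genes were chosen on results already known, and the cause of the differences was not tested.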

How the results depend on the processing

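The count of 2505 calls was 2054 under ordinary analysis of variance, 2449 with all 24 arrays in 1 fit, 2702 with array weights, 2483 with a replicate block and 3931 (2022 positive) at a 1.5-fold threshold. Leaving out 1 array gave 2361 to 3037, the highest without WT salt replicate 3. The class in which both genotypes moved the same way held 81 probe sets, 52 under ordinary analysis of variance and 61 to 132 with an array left out, and the class that differed between genotypes in salt only held 236 and 211 to 491, both highest without WT salt replicate 3. The calls shared with the same sign by another setting were 82% to 99.4% of the 2505, the lowest under ordinary analysis of variance. Of the 70 named genes none turned its sign in 19 settings and 56 stayed past the thresholds in all. The kept sign is no separate evidence, since genes named by size were picked for a sign that held without each array. Fits that change only the error estimate, such as ordinary analysis of variance or the replicate block, leave the interaction value as it is. Such fits could not turn a sign. Calls were lost with all 24 arrays in 1 fit for *P69B* (adjusted p = 0.0703), *ACS6* (0.238), *ARPI* (0.177), *CHI9* (0.752), *pip1* (0.341) and *SBT2* (0.0509), under analysis of variance for *AREB1*, *ERF2*, *ltpg1* and *adc1*, and, by falling under 2-fold with an array left out, for *ACO4*, *nii1*, *TCP24*, *ERF2* (-0.89) and *Wiv-1* (-0.91), the last 2 without WT salt replicate 3. The replicate block changed no call of a named gene. The files give no background level, so no limit by signal is stated.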

Other observations

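The largest interactions of genes known here only by LOC numbers were chosen after their values were seen. LOC101248516 had an interaction of -8.85 ± 0.31, from a rise of 9.16 in WT with 0.31 in *res*. LOC101248402 had -7.89 ± 0.39, falling by 4.32 in *res* and rising by 3.57 in WT. LOC101268309 (7.85 ± 0.71) and LOC101248159 (7.21 ± 0.25) rose in *res* by 3.82 and 1.80 and fell in WT by 4.03 and 5.41. In all 4 the difference of *res* vs WT turned its sign between control and salt.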
